A study of Saccharomyces cerevisiae with 6 samples.

Results

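The levels of extended mRNAs were described for 490 mostly essential genes of Saccharomyces cerevisiae in 2 pools of strains that lack nonsense-mediated mRNA decay. The genes are those with a gene symbol on the platform table and a value on all 4 arrays of the NAM7 and NMD2 pools, out of 671 named genes with a value on at least 1 of the 6 arrays of the series. Each strain carries a DAmP allele, in which a resistance cassette inserted behind the stop codon of 1 gene gives its mRNA a long 3' extension. The strains, haploids derived from BY4742 and BY4741, were crossed as a pool with a deletion of NAM7 or of NMD2 and grown for 18 generations under selection for both alleles with G418 and nourseothricin. Barcodes copied from the extended mRNA (Cy3) and barcodes from genomic DNA of another aliquot of the same cells (Cy5) were hybridised to 1 array. There are 2 arrays per pool, the second a technical repeat begun from the cell material, so every error below measures technical spread within 1 cross per deletion. The third pool of the series, with a deletion of YEL068C, keeps the decay pathway and was used here only to see which genes have a value there.

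Nonsense-mediated decay recognises mRNAs whose translation ends far from the normal 3' end, and the extension of a DAmP allele places the stop codon in that position. NAM7 encodes the helicase Upf1 and NMD2 the adaptor Upf2, which are both required for this decay in yeast. In a strain lacking either factor, the amount of extended mRNA therefore depends on how strongly the gene is transcribed and on its other routes of decay.

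Levels are given as log2 of the RNA signal of a barcode over its DNA signal, with the median of the 490 genes on that array set to 0. A level of 1 is thus a 2-fold higher ratio of RNA to DNA than that of the median gene, if the deposited logarithm has base 2, as their range makes likely. The division by DNA takes out the number of cells of a strain, as far as the RNA and DNA aliquots hold the same mix. The barcode is read 1 time per molecule, so a level does not grow with the length of the mRNA. The labels do not state which dye is the numerator. In the deposited sign all 20 valued genes of a list of abundant mRNAs lay below 0 (median -2.86), so the deposited ratio is likely DNA over RNA and its sign was turned. The list was chosen with earlier results of these data known, so it is no independent check of the sign. If that choice were wrong, each gene named as high would be low and the reverse.

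The levels spread widely. They ran from -3.43 to 5.63, a 532-fold range, with a SD over genes of 1.43. The 5th and 95th percentiles lay at -1.88 and 2.53, 21.3-fold apart. Of the 490 genes, 234 (47.8%) lay within 1 of the array median, 43 lay over 2 and 16 under -2. The upper tail of these 490 genes was the longer one, with 12 genes over 3 and 2 under -3. The need for a value on all 4 arrays left out 67 genes valued on both arrays numbered 2 and neither numbered 1. Their median there was -1.17, so the filter may shorten the lower tail. Against the array median, 189 genes (38.6%) were higher and 193 (39.4%) lower than the spread between arrays allowed (limma over all 490 genes, Benjamini-Hochberg adjusted p under 0.05), together 382 (78%). The median standard error of a level was 0.153. Arrays of the same number deviated together in both pools, so these 4 values are not fully independent and the p-values are too small. With same-numbered arrays averaged to 1 value, an alternative added after seeing the data, 165 genes (33.7%) were above and 161 (32.9%) below. That fit gave every gene the same error, so a gene whose array numbers disagree could still pass. With the array number as a block, 224 (45.7%) were above and 226 (46.1%) below. The block takes the shift between array numbers out of the error of a level. Its p-values for levels are thus too small to a greater degree. A gene can pass there with its array numbers on opposite sides of the median.

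Metabolic enzymes, a histone and a polymerase subunit had the highest levels. ILV5, which encodes an enzyme of branched-chain amino acid synthesis in mitochondria, read 5.35 and 5.90 on the NAM7 arrays and 5.36 and 5.90 on the NMD2 arrays (mean 5.63, SE 0.17, adjusted p = 5.39e-06 in limma). The glycolytic genes PGK1, for phosphoglycerate kinase, and CDC19, for pyruvate kinase, came next at 5.42 (SE 0.20) and 5.20 (SE 0.20). PGK1 read 4.91 and 5.64 on the NAM7 arrays and 5.19 and 5.93 on the NMD2 arrays, and CDC19 read 4.79, 5.60, 4.87 and 5.52 in the same order. In all 3 genes the arrays numbered 2 were the higher, and the pools overlapped. Compared within each array, CDC19 was always the lowest of the 3. ILV5 and PGK1 changed order between arrays, so the order of these genes is not settled. No test compared the genes.

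HSP60, the mitochondrial chaperonin gene, read 4.59 and 5.13 on the NAM7 arrays and 4.26 and 5.28 on the NMD2 arrays. RPB10, the gene of a small subunit shared by the nuclear RNA polymerases, read 4.77, 4.57, 5.01 and 4.60, and the histone H2B gene HTB1 read 4.94, 4.61, 4.69 and 4.40. These were the 4th, 5th and 6th highest levels and lay close together, at 4.81 (SE 0.21), 4.74 (SE 0.15) and 4.66 (SE 0.14), with arrays that overlapped. PSA1, which makes GDP-mannose for glycosylation, followed at 4.04 (SE 0.14), and EFB1, for an elongation factor that recharges eEF1A, at 3.57 (SE 0.17). The other 7 of the 15 highest were the ribosomal protein gene RPL17A (3.37), the methyl-cycle gene SAH1 (3.12), the pyrophosphatase gene IPP1 (3.11), the 60S factor gene TIF6 (3.02), the eIF2 beta gene SUI3 (2.88), the snoRNP gene NOP58 (2.85) and the cap-binding eIF4E gene CDC33 (2.83). RPL17A and SAH1 had standard errors of 0.51 and 0.43, several times those of their neighbours, and their arrays split by number.

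**Figure D1:**
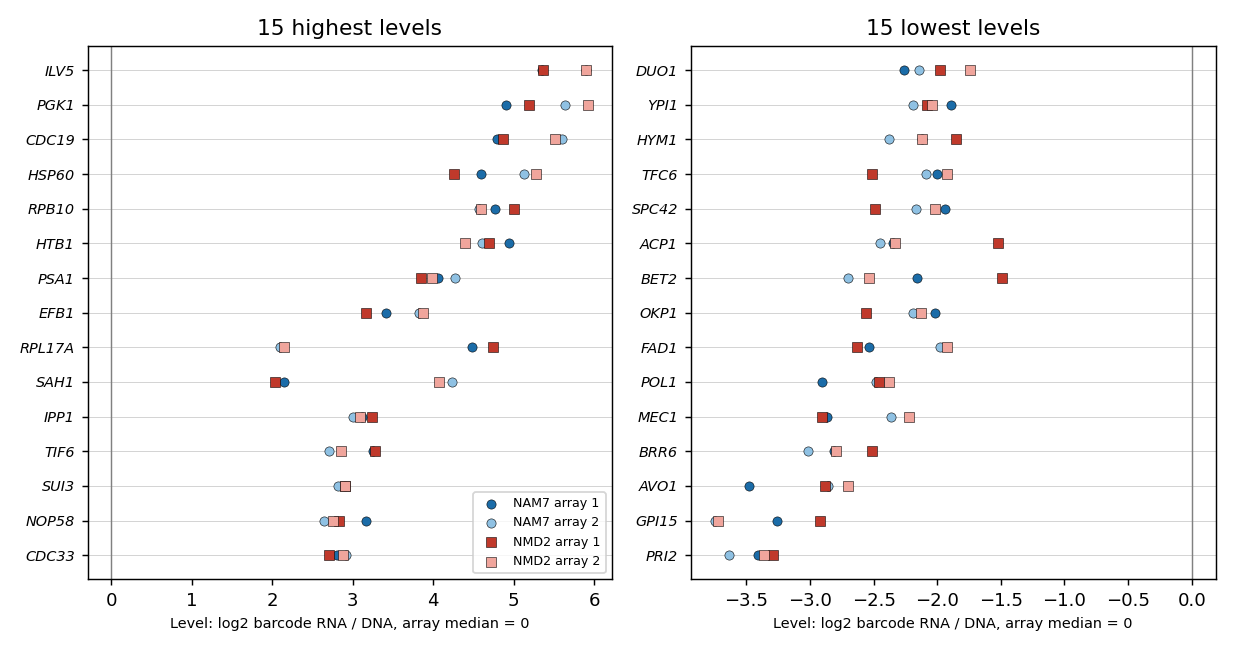
Levels of the 15 highest and 15 lowest genes on each of the 4 arrays (x axis, log2 RNA over DNA with the array median at 0; blue circles NAM7, red squares NMD2, paler symbols the arrays numbered 2; the 2 panels have different scales). The top gene ILV5 sits between 5.35 and 5.90, the lowest gene PRI2 between -3.64 and -3.29, and RPL17A and SAH1 split by array number rather than by pool.

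The lowest levels belonged to genes of DNA replication, glycolipid synthesis, chromosome segregation and signalling. PRI2, for the large subunit of DNA primase, read -3.41 and -3.64 on the NAM7 arrays and -3.29 and -3.36 on the NMD2 arrays (mean -3.43, SE 0.13). GPI15, needed for the initial step of GPI anchor synthesis, read -3.26, -3.75, -2.92 and -3.72 in that order (mean -3.42, SE 0.19). The arrays of the 2 genes overlapped, so their order is not settled. AVO1, a subunit of TOR complex 2, lay at -2.98 (SE 0.16), the nuclear envelope gene BRR6 at -2.79 (SE 0.14), the checkpoint kinase gene MEC1 at -2.59 (SE 0.18) and POL1, for the catalytic subunit of DNA polymerase alpha, at -2.56 (SE 0.14). The remaining 9 were FAD1 of flavin cofactor synthesis, the kinetochore genes OKP1 and DUO1, the prenyltransferase gene BET2, the mitochondrial acyl carrier gene ACP1, the spindle pole gene SPC42, the Pol III factor gene TFC6, HYM1 of the RAM network and YPI1, a regulator of protein phosphatase 1. They lay between -2.27 and -2.03.

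Among lists with at least 5 valued genes, median levels ran from -1.52 to 2.70. Of the 490 genes, 465 fell in at least 1 of 29 lists of essential functions. Genes of translation, the proteasome and central metabolism had high medians, and genes of chromosome maintenance, segregation and splicing low ones. The high side of the abundant, translation factor and metabolism lists is partly fixed by the choice of direction, since abundant mRNAs set it, translation factors served as its alternative, and ILV5, PGK1, CDC19, SAH1, IPP1, PGI1 and PMA1 of the metabolism list are also on the abundant list. The lists below are given as counts and medians beside the background of 38.6% above and 39.4% below among all genes, whose level on each array is centred on 0, and no test was made of a list.

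**Figure D2:**
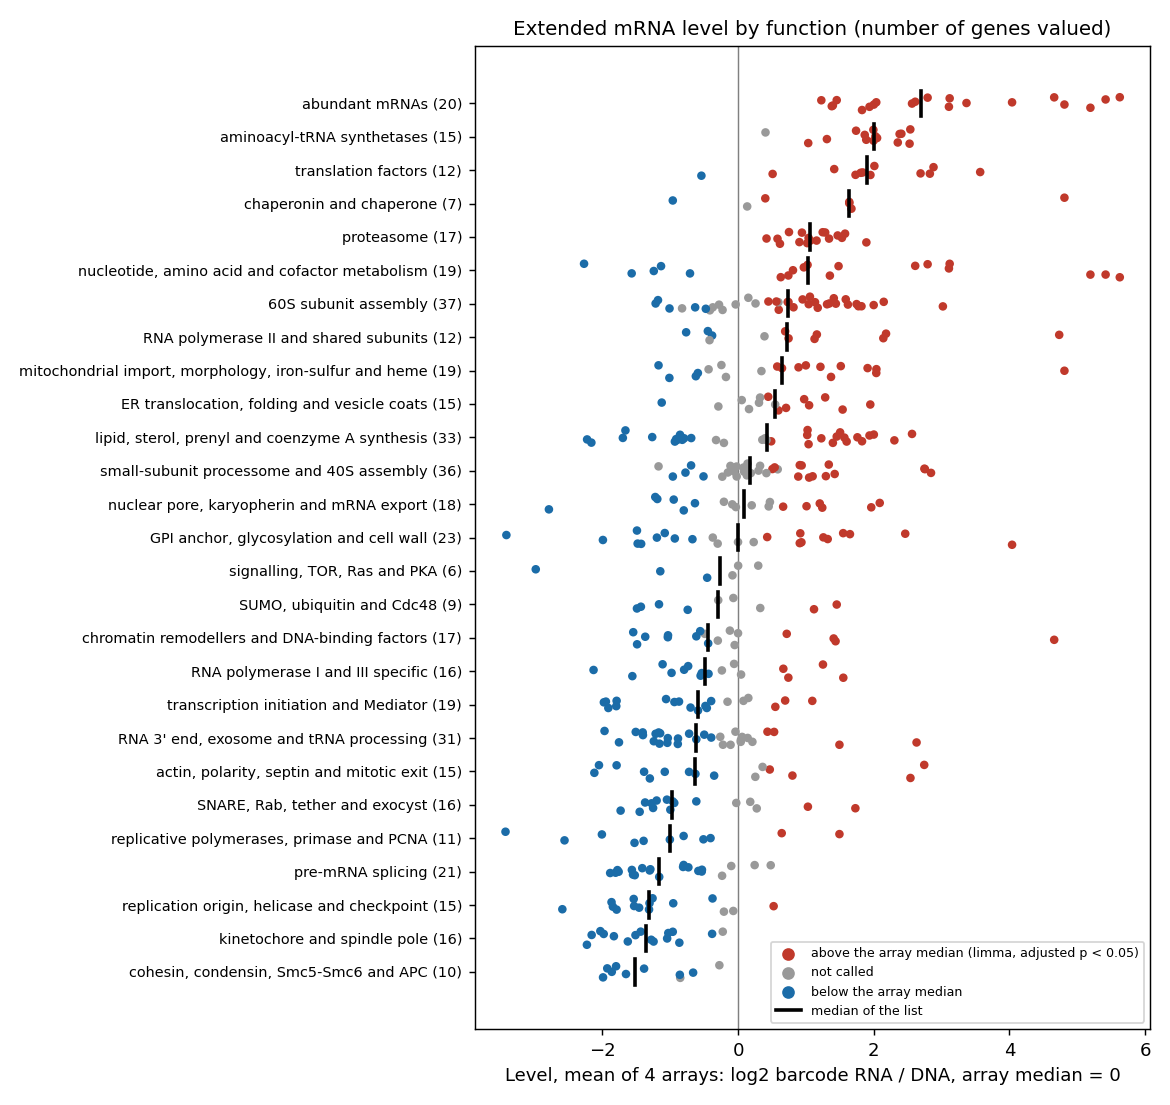
Level of every gene (points, mean of 4 arrays, log2 with the array median at 0) in the 27 functional lists with at least 5 valued genes, ordered by the list median (black bar). Red points passed the limma test above the array median, blue points below it, and grey points passed in neither direction. Aminoacyl-tRNA synthetases and proteasome genes lie almost wholly on the right, and kinetochore, replication origin, cohesin and condensin genes almost wholly on the left.

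Genes that charge tRNAs were mostly high. Of 15 aminoacyl-tRNA synthetase genes valued (35 listed), 14 were above the array median and 0 below, with a median level of 2.0 and a SD over genes of 0.59 against 1.43 for all genes. The lysyl-tRNA synthetase gene KRS1 read 2.37 and 2.78 on the NAM7 arrays and 2.29 and 2.72 on the NMD2 arrays (mean 2.54), and the seryl enzyme gene SES1 read 2.49, 2.66, 2.47 and 2.50 (mean 2.53). YHR020W, the prolyl-tRNA synthetase gene, stood at 2.41. At the lower end were the histidyl (HTS1, 1.31) and tryptophanyl (WRS1, 1.03) enzyme genes. FRS2, the alpha subunit gene of the phenylalanyl enzyme, did not pass (0.41, SE 0.41). It read -0.69 and -0.44 on the arrays numbered 1 and 1.25 and 1.5 on those numbered 2, on opposite sides of the median. It passed with the array number as a block (adjusted p = 3.6e-05 in limma), but that fit leaves this split out of the error.

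Translation factor genes had a similar median. Of 12 valued, 11 were above the array median and 1 below, with a median of 1.90. EFB1 (3.57), SUI3 (2.88) and CDC33 (2.83) led, and SUI3 hardly varied, with 2.91, 2.82, 2.90 and 2.90 on the 4 arrays. The lowest was CDC123, which helps assemble eIF2 (-0.54), and above it came the eIF2B subunit gene GCD2 (0.51) and the eIF3 subunit gene TIF34 (1.42). CDC123 and GCD2 did not pass with same-numbered arrays averaged, nor without NAM7 array 2 or NMD2 array 2. GCD2 also failed without NAM7 array 1 and CDC123 without NMD2 array 1.

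Ribosome assembly genes had medians above the array median, the higher one for the large subunit. Of 37 genes for the 60S subunit, 23 were above the array median and 5 below (median 0.74), and of 36 for the small-subunit processome and 40S subunit, 13 were above and 4 below (median 0.17). TIF6, which keeps the subunits from joining, headed the 60S list with 3.25 and 2.70 on the NAM7 arrays and 3.28 and 2.86 on the NMD2 arrays. The assembly GTPase genes NOG2 (2.15) and NOG1 (2.0) came next. LAS1 (-1.22) and GRC3 (-1.18), which act together in cutting the internal transcribed spacer of pre-rRNA, were the lowest of the list. RIA1, a GTPase that releases TIF6, was low too (-1.01). The 5 genes below became 10 with the array number as a block, and 3 to 6 when 1 array was left out.

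In the small-subunit list the snoRNP genes NOP58 (2.85) and CBF5 (2.75) and the processome gene ESF1 (2.75) stood well apart from the rest, whose next value was 1.43. In this list 19 of 36 genes did not pass in either direction. The RNA helicase gene FAL1 (-0.96) was below the median and FAF1 too (-0.78). ROK1, another helicase gene, had the lowest mean (-1.17, SE 0.50) and did not pass. Its arrays numbered 1 read -2.46 and -2.29 and those numbered 2 read 0.18 and -0.12, so its mean describes neither set. It passed as below with the array number as a block (adjusted p = 7.17e-10 in limma) and with same-numbered arrays averaged. Neither fit weighs the gene's own split between array numbers. With the block, 19 genes of this list were above and 7 below.

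Lists of RNA polymerase genes differed in median, with no test of that difference. Neither list is a single enzyme, and both include factor genes such as FCP1 and TFC6. Shared and Pol II genes had a median of 0.72, with 7 of 12 above and 3 below (1 or 2 below when 1 array was left out). RPB10 led, followed by RPC40, a subunit shared by Pol I and Pol III (2.13, 2.24, 2.10 and 2.26), and RPB5, shared by all 3 nuclear enzymes (2.35, 2.04, 2.11 and 2.07). FCP1, for the phosphatase of the Pol II tail, was the lowest at -0.77. Genes specific to Pol I or Pol III had a median of -0.49, with 4 of 16 above and 9 below. The 3 highest of them all belong to Pol I, RPA135 (1.55) and RPA190 (1.25) for its largest subunits and RPA43 (0.74). The 3 lowest belong to Pol III, the TFIIIC genes TFC6 (-2.13) and TFC4 (-1.56) and the subunit gene RPC17 (-1.11). This split was not complete. The Pol I factor genes RRN3 (-0.98) and RRN6 (-0.735) were below, and the Pol III subunit gene RPO31 (0.67) was above. RRN3, RRN6 and RPO31 were named after their values were seen.

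Initiation and Mediator genes were mostly low, with 3 of 19 above and 13 below (median -0.59). NCB2, a subunit of the repressor NC2, was the highest at 1.09, and TFG1 of TFIIF stood at 0.69. The lowest were the Mediator gene MED7 (-1.98), the TFIIH gene TFB2 (-1.95) and CCL1, the cyclin of TFIIH (-1.91). Among chromatin and DNA-binding genes 4 of 17 were above and 8 below (median -0.44), or 5 below with same-numbered arrays averaged and 10 with the array number as a block. HTB1 was far above the others, and the paired helicase genes RVB1 and RVB2 stood at 1.44 and 1.41. EPL1 and SWC4, subunits of the NuA4 acetyltransferase, were the lowest at -1.54 and -1.49, followed by FHL1, a regulator of ribosomal protein genes (-1.37).

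Splicing genes were low, with 0 of 21 above the array median and 17 below (median -1.16). PRP4 (0.48, SE 0.22) and LSM4 (0.24, SE 0.21), of the U4/U6 snRNP and the Lsm ring, had the highest means and did not pass, although both were above with the array number as a block. YJU2, needed for the step that follows spliceosome activation, read -1.54 and -2.06 on the NAM7 arrays and -1.65 and -2.28 on the NMD2 arrays. PRP3 of the U4/U6 snRNP (-1.80) and SNU71 of the U1 snRNP (-1.78) were nearly as low. RNA 3' end, exosome and tRNA processing genes were lower as well, with 4 of 31 above and 18 below (median -0.61). The poly(A)-binding protein genes PAB1 (2.63) and NAB2 (1.5) were the exceptions at the top. YTH1 (-1.97) and PAP1 (-1.51), for a cleavage factor and the poly(A) polymerase, and POP4 of RNase P (-1.75) were at the bottom. Averaging same-numbered arrays left 2 genes above in this list, PAB1 and NAB2 remaining the highest, and 15 below.

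Replication genes were low on the whole. Among polymerase, primase and nucleotide supply genes 2 of 11 were above the array median and 9 below (median -1.01). The 2 above were RNR2, for the small subunit of ribonucleotide reductase (1.72, 1.27, 1.76 and 1.24), and POL30, for the sliding clamp PCNA (0.42, 0.56, 0.72 and 0.88). POL30 did not pass with same-numbered arrays averaged (adjusted p = 0.058 in limma). PRI2, POL1 and DNA2, a nuclease-helicase gene (-2.01), were the lowest. The genes at the fork thus spanned from -3.43 for primase to 0.64 for its clamp. Among origin, helicase and checkpoint genes 1 of 15 was above and 12 below (median -1.31), MEC1, PSF1 of the GINS complex (-1.86) and DPB11 (-1.84) being the lowest. The 1 above was the licensing gene CDC6 (0.53), which did not pass when any 1 array was left out or when same-numbered arrays were averaged.

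Chromosome segregation genes had low medians. Of 16 kinetochore and spindle pole genes, 0 were above the array median and 15 below (median -1.36, highest -0.23). OKP1 of the inner kinetochore read -2.02 and -2.19 on the NAM7 arrays and -2.56 and -2.13 on the NMD2 arrays, and SPC42, the core protein gene of the spindle pole body, read -1.94, -2.17, -2.49 and -2.02. The highest mean was that of NNF1 (-0.23), which passed only with the array number as a block (adjusted p = 0.00564 in limma). Among cohesin, condensin, Smc5-Smc6 and anaphase-promoting complex genes 0 of 10 were above and 8 below (median -1.52). APC5 (-1.99), the condensin gene BRN1 (-1.93) and the SUMO ligase gene MMS21 (-1.86) were the lowest, and CDC16, another gene of the anaphase-promoting complex, had the highest mean without passing (-0.28, SE 0.17), and was below with the block. The 2 lists kept 14 and 8 genes below when same-numbered arrays were averaged.

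Proteasome genes had the smallest spread of any list with at least 5 values. All 17 valued were above the array median, with a median of 1.07, a range of 0.42 to 1.89 and a SD over genes of 0.39. The catalytic core gene PRE2 (2.47, 1.76, 1.58 and 1.76 on the NAM7 and then the NMD2 arrays) and the core genes SCL1 (1.58) and PRE1 (1.53) were the highest. The lowest were the base ATPase genes RPT2 (0.42) and RPT6 (0.62) and the core gene PRE6 (0.58). These 3 did not pass with same-numbered arrays averaged, which left 14, and leaving out any 1 array left 15. In the list of SUMO, ubiquitin and Cdc48 genes 2 of 9 were above, the ubiquitin-activating enzyme gene UBA1 (1.46) and the SUMO gene SMT3 (1.12), and 4 below, the ubiquitin ligase gene CDC4 (-1.49) and the SUMO protease gene ULP1 (-1.43) lowest. Of 7 chaperone genes 5 were above (4 with same-numbered arrays averaged), HSP60 and the CCT genes CCT7 (1.67) and CCT2 (1.64) highest, and SGT1 was below (-0.96).

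Central metabolism held the 3 highest levels. Of 19 genes for nucleotide, amino acid and cofactor metabolism, 14 were above the array median and 5 below (median 1.02, SD over genes 2.35). ILV5, PGK1 and CDC19 were at the top, and the 5 below were all genes of flavin or folate synthesis, FAD1, RIB5, RIB7, RIB2 and FOL1, between -2.27 and -0.71. Not all genes of these pathways were low, since RIB3 of flavin synthesis (0.63) and FOL2 of folate synthesis (1.02) were above the array median. RIB2, RIB3, FOL1 and FOL2 were named after their values were seen, since the rule for names does not take them. The list of abundant mRNAs, most of whose 20 valued genes also stand in other lists, had a median of 2.70 and all members above, but it set the direction of the ratio and so is no independent evidence.

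Lipid genes lay on both sides of the array median. Of 33 genes for lipids, sterols, prenyl groups and coenzyme A, 16 were above and 12 below (median 0.42). The sterol genes ERG11 (2.57), for the target of azole drugs, and ERG1 (2.31) and the fatty acid synthase gene FAS1 (2.0) were highest, and ERG11 read 2.68, 2.47, 2.40 and 2.72. The lowest were BET2 (-2.23), whose product attaches prenyl groups to Rab proteins, ACP1 (-2.16) and KEI1 of inositol phosphorylceramide synthesis (-1.70). Of 23 genes for GPI anchors, glycosylation and the cell wall, 10 were above and 9 below (median 0.00). The cytosolic sugar nucleotide genes PSA1 (4.04) and SEC53 (2.46) and the dolichol phosphate mannose synthase gene DPM1 (1.65) led, and GPI15 (-3.42), the dolichol kinase gene SEC59 (-1.99) and GPI1 (-1.49), which acts with GPI15, closed the list.

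Among 19 mitochondrial, iron-sulfur and heme genes 11 were above and 4 below (median 0.65). The import channel gene TIM17 (2.04) and MMF1 (2.04) followed HSP60, and the carrier gene RIM2 (-1.17), the cytosolic iron-sulfur assembly gene NAR1 (-1.01) and the ferrochelatase gene HEM15 (-0.62) were lowest. With the array number as a block 7 were below, and with same-numbered arrays averaged 2. HEM15 did not pass without NAM7 array 1 or NMD2 array 1, or with same-numbered arrays averaged. In the endoplasmic reticulum list 8 of 15 were above and 1 below (median 0.55), from the translocon gene SEC61 (1.95) to SEC12 (-1.12), for the exchange factor that starts COPII coats. The SNARE, Rab, tether and exocyst list was the reverse, with 2 of 16 above and 11 below (median -0.98), or 4 above with the array number as a block. The Rab gene YPT1 (1.73) and the SNARE gene YKT6 (1.03) were the 2 above, and the tether genes SEC5 (-1.73), COG3 (-1.45) and TRS120 (-1.37) were the lowest.

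Nuclear transport genes had a median of 0.08, with 6 of 18 above and 6 below. The mRNA export genes YRA1 (2.09), SUB2 (1.96) and MTR2 (1.24) were the highest, and YRA1 read 1.96 and 1.93 on the NAM7 arrays and 2.25 and 2.22 on the NMD2 arrays. Its pools did not overlap, as in 18.2% of all genes, and their difference did not pass (adjusted p = 0.995 in limma, 0.313 with the array number as a block). BRR6, the pore gene NUP85 (-1.22) and the import receptor gene MTR10 (-1.19) were lowest. Among actin, polarity, septin and mitotic exit genes 4 of 15 were above and 9 below (median -0.63). The profilin gene PFY1 (2.75) and ARC35 of the Arp2/3 complex (2.54) were high, while HYM1, YPI1 and the phosphatase regulator gene SDS22 (-1.79) were low. Of 6 signalling genes 0 were above and 3 below, AVO1 and the RAS regulator gene IRA1 (-1.15) among them. The 25 genes in no list had a median of 0.06, with 7 above and 7 below. NAM7, NMD2 and YEL068C had no value on the 4 arrays, and DCP2, the decapping enzyme gene and the 1 valued gene of the list of decay factors, lay at -0.26 without passing (below with the array number as a block, adjusted p = 0.00173 in limma).

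A value was present in the mutant pools and on neither YEL068C array for 29 genes. Their levels here are thus values that have no counterpart in the decay-competent pool, and why the YEL068C value is missing was not tested. They ranged from -2.79 to 3.02 with a median of 0.47, and 19 lay above 0. Against the array median 14 were above, 7 below and 8 did not pass. The 435 genes valued on both YEL068C arrays had a median of -0.03, with 165 above and 176 below. The 29 were shorter, with a median gene length of 825 nucleotides against 1470. They were 5.92% of the 490 genes. By function they included 4 of the 36 small-subunit assembly genes, 3 of the 12 translation factor genes and 3 of the 12 shared and Pol II genes. The GPI (0 of 23), abundant (0 of 20), metabolism (0 of 19) and proteasome (0 of 17) lists held none, which at that overall share would be about 1 gene each, and no test was made.

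**Figure D3:**
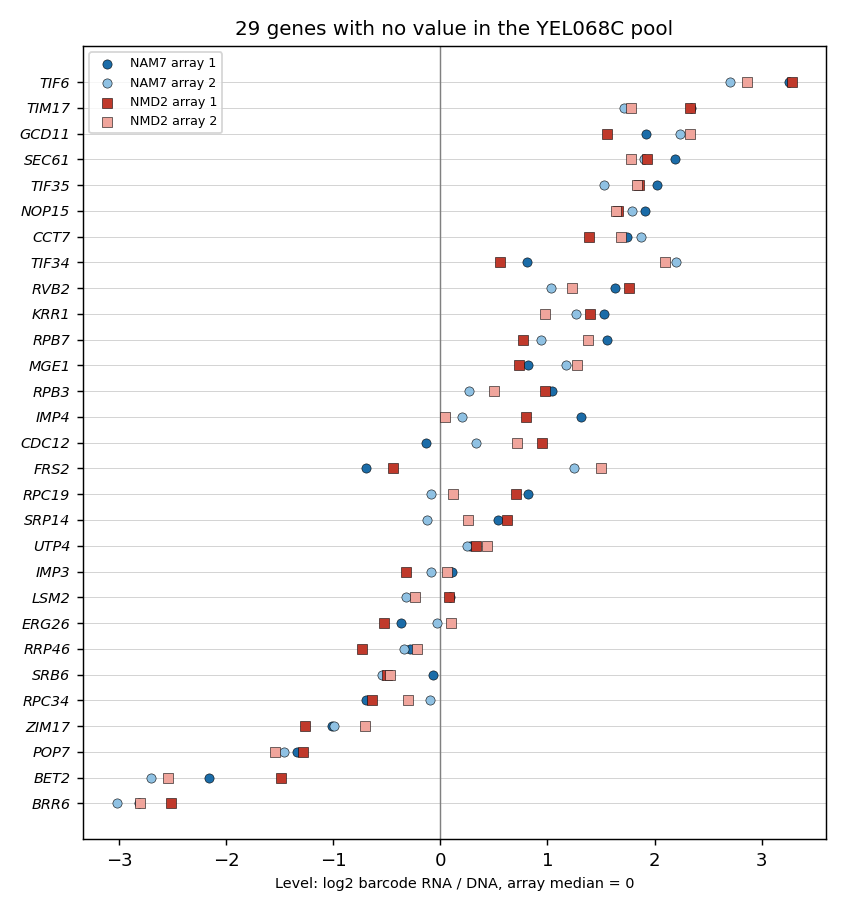
Levels on the 4 arrays (x axis, log2 with the array median at 0; blue circles NAM7, red squares NMD2, paler symbols the arrays numbered 2) of the 29 genes with no value in the YEL068C pool, ordered by mean. They span from TIF6 at 3.02 to BRR6 at -2.79, and FRS2 and TIF34 split by array number.

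The highest of these were TIF6, TIM17 (2.04), the eIF2 gamma gene GCD11 (1.92 and 2.24 in the NAM7 pool, 1.56 and 2.33 in the NMD2 pool), SEC61 (2.19, 1.90, 1.93 and 1.78), the eIF3 genes TIF35 (1.81) and TIF34 (1.42), and the 60S gene NOP15 (1.75). CCT7 (1.67), RVB2 (1.41), the 40S gene KRR1 (1.29), the Pol II subunit gene RPB7 (1.16) and the mitochondrial chaperone cofactor gene MGE1 (1.0) were above as well. RPB3, another Pol II subunit gene (0.69), was above but did not pass without NAM7 array 1 or NMD2 array 1. The septin gene CDC12 (0.47) was above but did not pass without NAM7 array 2 or without either NMD2 array, nor with same-numbered arrays averaged. The processome genes IMP4 (0.58), UTP4 (0.33) and IMP3 (-0.06), FRS2 (0.41), RPC19 of Pol I and Pol III (0.39), SRP14 of the signal recognition particle (0.33), LSM2 (-0.10) and the sterol gene ERG26 (-0.21) did not pass in either direction. With the array number as a block, IMP4, UTP4, FRS2, RPC19 and SRP14 were above and ERG26 was below.

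At the lower end of the 29 were BRR6 (-2.81 and -3.02 in the NAM7 pool, -2.51 and -2.80 in the NMD2 pool), BET2 (-2.16, -2.70, -1.49 and -2.54) and POP7 of RNase P (-1.34, -1.46, -1.28 and -1.54). All 3 lay below -1 on each of the 4 arrays. ZIM17, which acts in mitochondrial import (-0.99), the Pol III subunit gene RPC34 (-0.43), the Mediator gene SRB6 (-0.40) and the exosome gene RRP46 (-0.40) were also below. RPC34, SRB6 and RRP46 did not pass with same-numbered arrays averaged, and leaving out NMD2 array 1, among others, also ended each of these calls. A further 26 genes had a value on 1 YEL068C array, with a median of 0.19, 10 above and 10 below. Among them were HSP60, CDC33, MED7, SEC59 and YPI1.

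Genes over 2000 nucleotides had lower median levels than shorter ones, with no steady order among the classes. Across the 490 genes Spearman's rho between level and gene length was -0.13, a description over genes that share the 4 arrays. The 20 genes of at most 500 nucleotides had a median of 0.04, with 6 above and 7 below. The 130 genes longer than 500 but at most 1000 nucleotides stood at a median of 0.20, with 58 above and 42 below. The 121 up to 1500 nucleotides stood at 0.14, the 87 up to 2000 at 0.04, the 80 up to 3000 at -0.49 (26 above, 42 below) and the 52 over 3000 at -0.18 (13 above, 22 below). The range within each class was far wider than these steps. Levels over 2 were found in 4 of the 20 shortest genes, in 1 of the 52 longest, in 5 of the 80 up to 3000 nucleotides and in 10 to 12 of each class between 500 and 2000.

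Single genes showed how loose the relation was. The 4 shortest were RPB10 (213 nucleotides, 4.74), SMT3 (306, 1.12), SRB6 (366, -0.40) and ACP1 (378, -2.16), which cover most of the whole scale. SRB6 did not pass when any 1 array was left out. The 4 longest were REA1, also called MDN1, of 60S assembly (14733 nucleotides, -0.04), IRA1 (9279, -1.15), the processome gene UTP20 (7482, 0.08) and MEC1 (7107, -2.59). REA1 and UTP20 did not pass in either direction, and UTP20 read 0.10 and 0.18 on the NAM7 arrays and -0.09 and 0.13 on the NMD2 arrays.

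**Figure D4:**
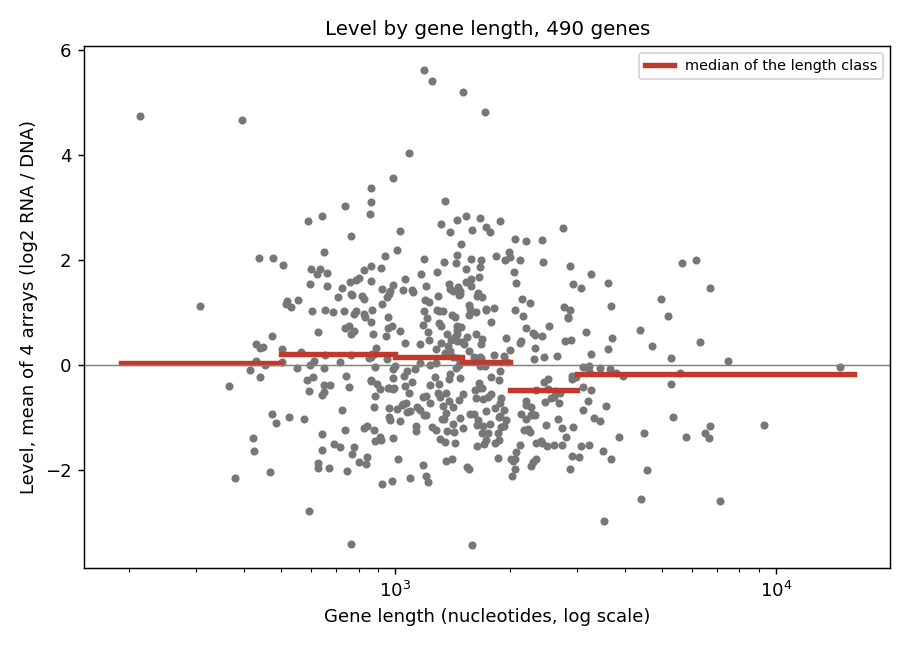
Level (y axis, mean of 4 arrays, log2) against gene length (x axis, nucleotides, log scale) for 490 genes, with the median of each length class as a red bar. The class medians are 0.04, 0.20, 0.14, 0.04, -0.49 and -0.18 from the shortest to the longest class, and the points in each class spread over several log2 units.

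Arrays of different number differed more than arrays of different pool. Arrays of the same number correlated across genes with r = 0.98 (number 1) and 0.99 (number 2) between the pools, whereas the 2 arrays of a pool correlated with r = 0.91 in both. The median absolute difference was 0.36 between numbers and 0.14 between pools, and 34 genes (6.9%) differed by over 1 between numbers, 27 of them higher on number 2. PMA1, for the plasma membrane proton pump, had the largest split, reading 0.39 and 0.44 on the arrays numbered 1 and 4.81 and 4.82 on those numbered 2. RPL17A went the other way, with 4.48 and 4.75 against 2.09 and 2.15. TCP1, the CCT alpha subunit gene (-1.26 and -0.91 against 1.36 and 1.34), ROK1 and SAH1 completed the 5 largest. The mean of TCP1 (0.14) describes neither set of arrays, and what the arrays of a number share is not stated in the labels.

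**Figure D5:**
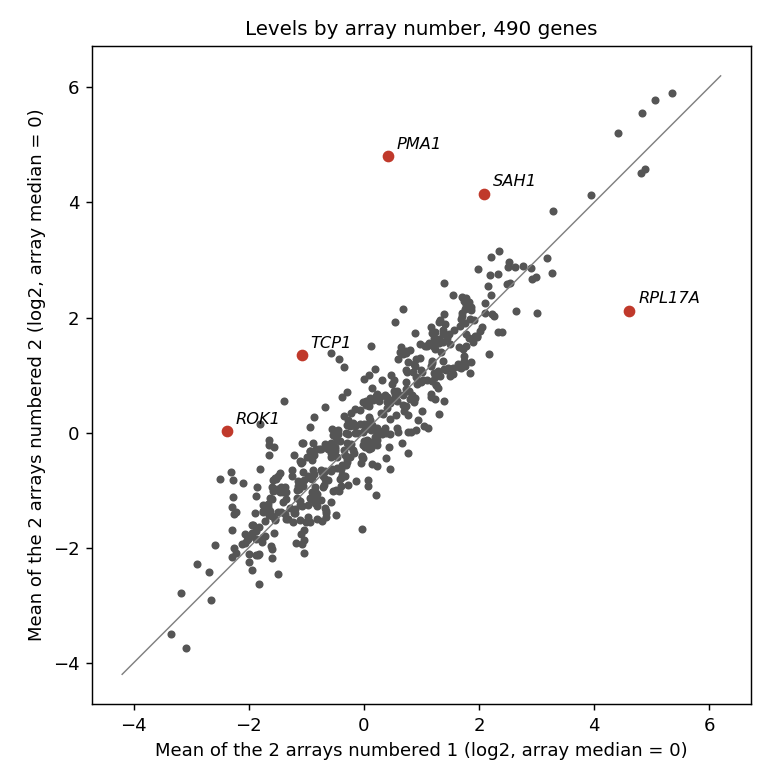
Mean level on the 2 arrays numbered 1 (x axis) against the mean on the 2 arrays numbered 2 (y axis) for 490 genes, both log2 with the array median at 0, with the line of equality. The 5 genes that differ by over 2 are named, PMA1 lying farthest from the line.

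No difference between the 2 pools passed the test without a term for array number. By limma 0 of 490 genes (0%) differed between NMD2 and NAM7 (2 at an unadjusted p under 0.05, smallest adjusted p = 0.995), and the largest difference was 0.84. A count of 0 does not show that the pools are equal. This fit ignores the pairing by array number and counts the shift between numbers as error. That shift had a median of 0.36, against 0.14 between pools, so small pool differences could hardly pass. With the array number as a block 6 genes (1.22%) passed. MIF2, the inner kinetochore gene, read -0.21 and -1.04 on the NAM7 arrays and -1.43 and -1.50 on the NMD2 arrays, a difference of -0.84 (adjusted p = 0.0352 in that limma fit). The kinetochore gene NNF1 and the processome gene RCL1 were also lower in the NMD2 pool, by -0.68 and -0.78. CDC12, the Smc5-Smc6 gene NSE3 and the deoxyhypusine synthase gene DYS1 were higher there, by 0.74, 0.61 and 0.60. PMA1, whose 2 array numbers differ most, had a pool difference that turned sign with the array left out. It was -2.18 without NAM7 array 1, 2.24 without NAM7 array 2 and 2.22 without NMD2 array 1. The arrays of the 2 pools did not overlap for these 6 genes, as for 89 genes in all (18.2%).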

How the data were processed

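Barcode arrays of 4 samples (2 NAM7, 2 NMD2) were analysed, with the 2 YEL068C arrays used for presence of a value. The values deposited by the authors, taken as log2 ratios, were made from the RNA (Cy3) and DNA (Cy5) barcode signals, per the labels' protocols; their scaling, background correction and the filter that leaves most of 15743 probe rows empty are not given in the sources used here. Per the series text, barcodes of the up tag were used. Of 843 probes with a value on any array, the platform table named 1 gene for 827, several for 0 and none for 16. Symbols were matched to RefSeq names (assembly R64), whose gene spans, introns included, gave the lengths. Probes valued on all 4 arrays (584 named) were averaged per gene, 94 genes having 2 probes that differed by a median of 0.12 and at most 0.32. The sign was turned and each array centred on its median, which had stood at 0.08 to 0.23. The test of levels used limma 3.58.1 under R 4.3.3 (lmFit, eBayes, two-sided, 1 term per pool, 2 residual degrees of freedom). A check on simulated data drew independent errors for each array. It therefore cannot show how far shared deviations make the p-values too small. Same-numbered arrays of the 3 pools deviated together (r = 0.89, 0.86 and 0.90 between pools over 433 genes). The numbers, taken from the sample titles, were treated as pairing the arrays only in the fit with the array number as a block. The main test has no term for them. The rule for named genes took the 15 highest and lowest levels, the highest, the lowest and up to 2 further members at each end of each list, all genes with no YEL068C value, the 5 largest differences between array numbers and in each direction between pools, and the 4 longest and shortest genes. Members and lists were chosen with earlier results of these data known. Precision rests on the number of arrays.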

Additional observations from a re-analysis of the deposited data

Results flagged for a closer look

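The NMD2 pool and the NAM7 pool differed in 6 genes by limma with the array number as a block, at an adjusted p under 0.05, and in 0 genes without it. NMD2 minus NAM7 was -0.84 for MIF2, -0.78 for RCL1 and -0.68 for NNF1, and 0.74 for CDC12, 0.61 for NSE3 and 0.60 for DYS1, on the log2 scale. In 3 further genes both arrays of 1 pool lay above the array median and both of the other below it. These were the RNase III gene RNT1 (0.80 and 0.10 in the NAM7 pool, -0.61 as the difference), RPP1 of RNase P (0.35 as the difference) and PGA1 of GPI anchor synthesis (0.38 as the difference). None of these 3 differences passed in limma, with the array number as a block or without it.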

How the results depend on the processing

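No called gene named above turned direction in any alternative. The fits without 1 array, and the fit with same-numbered arrays averaged, gave every gene the same error. A call kept or lost in them does not weigh the gene's own spread. Genes above and below numbered 224 and 226 with the replicate block, 202 and 160 without centring, which moves the median gene to 0.16, and 174 to 179 and 167 to 173 when 1 array was left out; a bound of 1 on the mean left 118 below. Of 160 called genes named by the rule, 20 lost the call without at least 1 array, 20 with same-numbered arrays averaged and 0 with the block, which added 20 calls. Genes called between pools were 6 with the block and 0 without it. Genes with no YEL068C value were 55 when missing on at least 1 YEL068C array, and 55 when 1 array of each pool sufficed. On arrays numbered 1 alone, list medians moved to 2.31 (abundant mRNAs), 0.33 (small subunit), -0.35 (Pol I and III), 0.95 (Pol II and shared), -0.32 (chromatin), -1.26 (replicative polymerases), 1.32 (chaperones), 0.16 (GPI) and 0.58 (endoplasmic reticulum). On arrays numbered 2 alone they moved to -0.29 (chromatin), -0.41 (RNA 3' end), -0.75 (replicative polymerases), 1.5 (chaperones), 2.15 (translation factors), -0.38 (actin) and 1.5 (nucleotide, amino acid and cofactor metabolism). With genes valued on at least 1 array of each pool, where centring on all genes valued raised the 490 genes by 0.06 to 0.17 per array, they moved to 0.45 (small subunit), -0.41 (Pol I and III), -0.46 (initiation), -0.33 (chromatin), -0.51 (signalling), -1.51 (kinetochore), 1.28 (proteasome), 1.77 (chaperones), -0.24 (GPI) and 0.57 (endoplasmic reticulum). The cause of the shifts by array number was not tested. The 1 ribosomal protein gene and 12 translation factor genes valued gave -2.11 for the direction of the ratio. Their lists were also chosen with earlier results known. One cross per deletion, an unstated numerator and the number of arrays limit all values.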

Other observations

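A further 67 genes had a value on both arrays numbered 2 and on neither numbered 1, and were left out above. On the arrays numbered 2 their median level was -1.17, with the median of the 490 genes on each array at 0 as before, and 19 lay above 0. The highest was NOP1, the fibrillarin gene, at 2.82 (2.74 in the NAM7 pool and 2.90 in the NMD2 pool). RPN6 (1.97) and RPT5 (1.86) of the proteasome and TIF11, for eIF1A (1.84), followed. The lowest was CLP1, at -3.635 (-3.74 in the NAM7 pool and -3.53 in the NMD2 pool). Next lowest were RRP17 (-2.65), THI80 (-2.635) and SPC29 (-2.61). Levels of the other genes left out, of 171 in all, were not summarised. With 1 array per pool these values have no replicate check.

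The cassette lies next to the downstream gene, so the orientation of that neighbour was looked up. The 280 genes with a convergent neighbour had a median level of -0.02 (SD over genes 1.45) and the 210 with a tandem one 0.00 (SD 1.40). In 22 divergent pairs of valued genes, 15 pairs lay on the same side of the median. The share over all gene pairs was not computed, and with levels centred on the median many unrelated pairs also share a side. The median absolute difference of the 22 pairs was 1.21, against 1.34 over all gene pairs. No test was made of either. A set of 12 probes with no gene symbol had levels from -2.08 to 1.73.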
